A study of Mus musculus with 4 samples.

Results

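The comparison described here is between Prrx1-positive cells low in cartilage matrix genes from a Glut1-deleted and a control library of the mouse embryonic knee region at E14.5. Cells were chosen by their own counts, with 1 or more UMIs of Prrx1 and at most 1 UMI of Matn1 and Acan together (a UMI, or unique molecular identifier, stands for a captured mRNA molecule). In all, 3385 of the 20569 kept cells of these libraries were selected on these genes, 1515 of 9305 in the control (16.3%) and 1870 of 11264 in the mutant (16.6%). The whole series held 44320 kept cells in 4 libraries.

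The tissue, labelled interzone, was the presumptive knee joint region of hindlimb cartilage, and 10x Genomics 3′ libraries were made from it. The E14.5 control carried no Cre (genotype label "No cre"), and the mutant library was labelled Prx1cre;Glut1f/f;Glut3f/+, that is with both Glut1 alleles and 1 Glut3 allele floxed. A further E14.5 library, labelled Prx1cre;Glut1f/f;Glut3f/f and called DCKO, and a control without Cre at E13.5 were used beside them. Each group was 1 library, so no value has a replicate check, and the number of embryos pooled was not stated in the sources used here. Prx1Cre is driven by a Prrx1 limb enhancer and recombines floxed alleles in limb mesenchyme, which includes chondrocytes and connective tissue but not muscle, endothelial or blood cells. Sex differed along with genotype. Xist stood at 0.455 CPM in the control and 1051 CPM in the mutant cells (CPM, UMIs summed over the selected cells and scaled to a total of 1000000), whereas the Y-linked gene Ddx3y had 852 UMIs in the control and 0 in the mutant. Genotype, sex and library cannot be told apart in any value given here.

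The control library held 84188147 UMIs and the mutant library 97110697, of which the selected cells contributed 10980090 and 12611301. Selected cells had a median of 6215 UMIs in the control and 5934.5 in the mutant. Many cells stood at the edge of the selection. A single Prrx1 UMI was found in 604 of the selected control cells (39.9%) and 785 of the mutant cells (42.0%), and 361 and 382 had exactly 1 UMI of Matn1 and Acan. Just outside, 2225 control and 3306 mutant cells met the limit on Matn1 and Acan with 0 Prrx1 UMIs, and 165 and 153 Prrx1-positive cells had exactly 2 UMIs of Matn1 and Acan. The libraries shared 30 cell barcodes, 0 of which were selected in both, and doublets were kept.

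Mesenchymal markers that played no part in the selection were examined for the label. Pdgfra, a receptor of connective tissue precursors, stood at 181 CPM in the selected cells of both libraries and at 67.5 and 65.6 CPM in the other kept cells of control and mutant. Col1a1, the main fibrillar collagen of connective tissue, reached 1467 CPM in control and 1768 CPM in mutant cells. All 6 mesenchymal markers other than Prrx1 (Pdgfra, Twist1, Twist2, Col1a1, Col1a2 and Col3a1) were above 10 CPM in these cells. Cartilage transcripts remained, with Col2a1 at 384 and 376 CPM. Among the selected cells, 910 of the control and 838 of the mutant had 5 or more UMIs of the interzone markers Gdf5, Osr2, Sfrp2, Creb5 and Tgfbi, so interzone markers were present in many but not all of them.

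Glucose enters most cells through facilitative transporters, among them Glut1, encoded by Slc2a1, and Glut3, encoded by Slc2a3. Hexokinase phosphorylates it for glycolysis, and the transcription factors MondoA and ChREBP respond to its phosphorylated forms by activating genes such as Txnip and Arrdc4. In the limb, mesenchymal cells between cartilage elements form the interzone, from which articular cartilage, ligaments and other joint tissues develop, and the growth factor gene Gdf5 is its usual marker.

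Slc2a1 was examined first. The gene lies on chromosome 4 from 119108711 to 119137983 of the mouse genome build GRCm38. Its level was 33 CPM in control cells (362 UMIs) and 122 CPM in mutant cells (1538 UMIs), a log2 ratio of 1.89 (1.72 to 2.06). The limits in parentheses after a ratio are those of its exact 95% interval for the pair of counts, which covers counting error only. Slc2a1 UMIs were thus 3.70-fold higher where the label gives Prx1cre;Glut1f/f;Glut3f/+. The position of the loxP sites relative to the 3′ tags was not given in the sources used here. A tag that lies outside the deleted segment would still be counted, so these UMIs check nothing about the deletion.

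The higher Slc2a1 count was spread over many cells. Slc2a1 UMIs were found in 19.5% of control cells (95% exact binomial interval 17.5 to 21.6) and 42.8% of mutant cells (40.6 to 45.1). With every cell thinned to 2000 UMIs the shares were 6.16% and 19.1%. Chondrocytes of the same libraries, defined by 5 or more UMIs of Matn1 and Acan, showed a log2 ratio of 2.51 (2.47 to 2.56), from 82.3 to 471 CPM. Muscle, endothelial and macrophage cells with 0 Prrx1 UMIs, 317 in the control and 459 in the mutant, lie outside the lineage that Prx1Cre targets. Their Slc2a1 ratio was smaller but also above 0, at 0.99 (0.67 to 1.34), and their shares with a UMI were 24.6% and 30.7% at median depths of 12164 and 11698 UMIs. Thinned in the same way, those shares were 5.60% and 8.44%. Cartilage transcripts were also higher in these cells of the mutant. Col2a1 stood at 246 and 392 CPM, Matn1 at 75.2 and 116.5 CPM and Acan at 33.7 and 56.2 CPM. The part of chondrocyte transcripts in this Slc2a1 ratio was not tested. Slc2a3 was sparse, with 66 UMIs in control and 56 in mutant cells and a log2 ratio of −0.43 (−0.98 to 0.10). Of the 12 glucose transporter genes listed, Slc2a1 alone reached 10 CPM.

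Across autosomal genes with at least 10 CPM in either library, 8219 in number, 19 (0.231%) were at least 2-fold higher in the mutant cells and 59 (0.718%) at least 2-fold lower. The balance depended on scaling, with 24 higher and 48 lower genes by TMM factors and 14 and 75 by the mean over cells of each cell's CPM. By that mean 8 of the 19 higher and 54 of the 59 lower genes were still past 2-fold, and by TMM factors 19 and 48. At 1.5-fold the counts were 61 (0.742%) and 196 (2.38%). The median log2 ratio over all these genes was −0.09, with 5709 genes (69.5%) below 0. Most genes on the higher side rested on few cells. In 11 of the 19 higher genes the 10 cells with most UMIs of the gene held over 50% of the UMIs in the mutant library, with a median of 65.9%. The same held in the control library for 6 of the 59 lower genes, with a median of 16.2%.

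**Figure D1:**
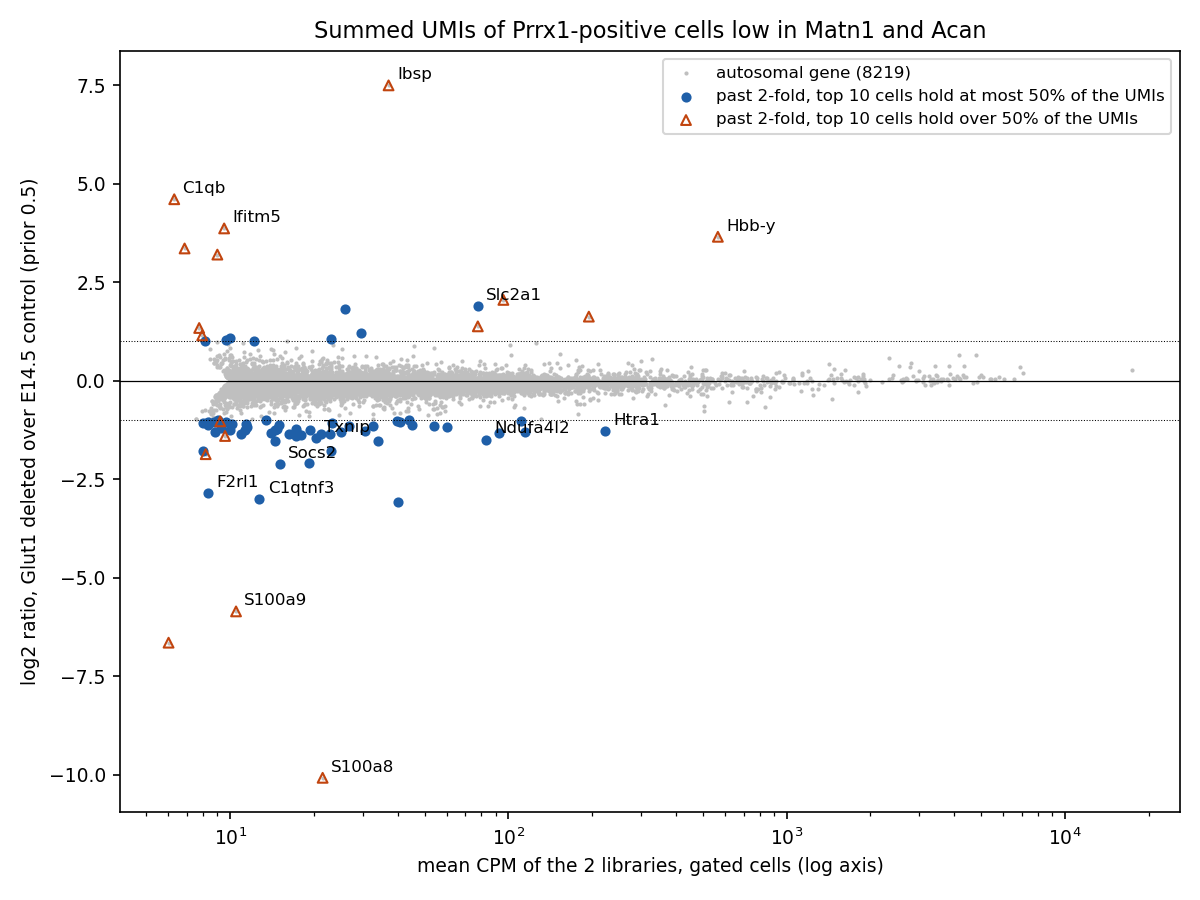
Log2 ratio of summed UMIs, mutant over control (vertical axis), against the mean CPM of the libraries compared (horizontal, log axis) for 8219 autosomal genes in the selected cells. Open triangles are genes past 2-fold (dotted lines) whose 10 cells with most UMIs hold over 50% of the UMIs in the higher library, which is the case for 11 of 19 higher and 6 of 59 lower genes.

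The glucose-responsive genes Txnip and Arrdc4 were both lower in the mutant. Txnip, which encodes an arrestin-like protein that limits glucose uptake, stood at 29.8 CPM in control and 10.8 CPM in mutant cells, a log2 ratio of −1.46 (−1.76 to −1.17). Its paralog Arrdc4 stood at 13 and 6.26 CPM, a log2 ratio of −1.05 (−1.47 to −0.65), or −0.98 with TMM factors. Both were lower in all 4 overlapping subsets of the cells (positive for Gdf5, for Tnmd or Scx, for Runx2 or for Dcn). Txnip ratios there ran from −1.50 to −1.10. The rule that named the largest falls, Txnip among them, required the same direction in the subsets with enough UMIs. Agreement over the subsets is therefore no separate check for Txnip. In chondrocytes the differences were wider, with −3.91 for Txnip and −2.68 for Arrdc4. Cells outside the Prx1Cre lineage showed −0.35 (−0.67 to −0.03) for Txnip and 0.22 (−0.51 to 1.01) for Arrdc4. The list of glucose-sensing genes had 6 of its 7 members above the filter, with a median of −0.22. The sensors of this pathway differed little, with −0.21 for Mlxip, which encodes MondoA, and −0.23 for its partner Mlx.

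The promoters of Txnip and Arrdc4 are shown because both genes were lower together and MondoA and ChREBP are known to bind paired E-box-like elements. Both were found by symbol among the RefSeq promoters of GRCm38.p6 and span 250 bases before to 50 after the gene start. Txnip lies at chr3:96557707-96558006 on the plus strand and Arrdc4 at chr7:68749189-68749488 on the minus strand. Capitals mark matches to the motifs searched on both strands, the E-box CACGTG and a pair of CACGNG with 5 bases between them. The pair can overlap the E-box, since N is any base, and its letters were chosen after these promoters had been read.
Txnip: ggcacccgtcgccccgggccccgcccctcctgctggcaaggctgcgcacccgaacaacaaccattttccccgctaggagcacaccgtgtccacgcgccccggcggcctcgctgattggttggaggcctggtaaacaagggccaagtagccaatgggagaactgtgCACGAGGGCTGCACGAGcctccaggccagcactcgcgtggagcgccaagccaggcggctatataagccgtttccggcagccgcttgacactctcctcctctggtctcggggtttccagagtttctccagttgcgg
Arrdc4: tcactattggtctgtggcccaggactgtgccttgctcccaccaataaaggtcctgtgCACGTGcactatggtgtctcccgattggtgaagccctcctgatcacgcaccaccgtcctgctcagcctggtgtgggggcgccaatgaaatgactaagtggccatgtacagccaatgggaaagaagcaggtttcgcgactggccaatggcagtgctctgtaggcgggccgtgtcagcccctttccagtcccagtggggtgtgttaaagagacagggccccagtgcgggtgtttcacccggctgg
The Txnip promoter held 1 match of the paired letters, starting at base 166, and 0 of CACGTG. The Arrdc4 promoter held 1 CACGTG, at base 58, and 0 of the paired letters. Of 32851 promoters, 2349 (7.15%) held CACGTG and 16 (0.0487%) the paired letters. A match describes the sequence and does not show binding.

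No glycolysis gene was past 2-fold in the summed UMIs, against 0.231% of all genes higher and 0.718% lower. At such shares a short list can hold 0 without differing from other genes. Of the 21 listed, 16 passed the filter and 12 of these were below 0, a share near the 69.5% of all genes. Their median log2 ratio was −0.23, against −0.09 for all genes. Intervals lay above 0 for 1 and below 0 for 11 of the 16, against 635 and 2234 of all 8219 genes. Slc16a3, which encodes the lactate exporter Mct4, went from 43.4 to 22 CPM, a log2 ratio of −0.98 (−1.20 to −0.76), and passed 2-fold by the mean over cells (−1.25), with Matn1 and Acan at 0 (−1.05) and without the 10 cells with most of its UMIs (−1.02). Lactate dehydrogenase A, encoded by Ldha, stood at 861 CPM in control and 586 CPM in mutant cells, or −0.55 (−0.60 to −0.51). Pyruvate kinase (Pkm, −0.38), enolase (Eno1, −0.35) and triose phosphate isomerase (Tpi1, −0.34) were also lower. Hexokinase 2, encoded by Hk2, stood furthest above 0, with 56.6 CPM in control and 80.0 CPM in mutant cells and a log2 ratio of 0.50 (0.35 to 0.65). The glycolysis median was −0.36 in Gdf5-positive, −0.36 in Tnmd- or Scx-positive, −0.11 in Runx2-positive and 0.04 in Dcn-positive cells. It was 0.09 in chondrocytes and 0.26 outside the Prx1Cre lineage. How Eno1 reads shared with its near-identical copy Eno1b were counted was not stated.

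Targets of the hypoxia-inducible factor Hif1, a list with no glycolysis gene in it, had 27 of 34 members above the filter. Of these, 24 were lower in the mutant, against 69.5% of all genes, and their median was −0.29. Intervals lay above 0 for 0 and below 0 for 19 of the 27, against 635 and 2234 of all 8219 genes. Plod2, a collagen lysyl hydroxylase, stood at 173 CPM in control and 88.3 CPM in mutant cells, a log2 ratio of −0.97 (−1.08 to −0.86), or −1.17 by the mean over cells. Bnip3, which acts in mitophagy, was at −0.68, the co-activator gene Cited2 at −0.63 and Vegfa at −0.31. Hif1a itself differed by −0.07. The list median was −0.45 in Gdf5-positive and −0.39 in Tnmd- or Scx-positive cells, but 0.01 in Runx2-positive and −0.08 in Dcn-positive cells, where all genes had −0.07 and −0.06. In chondrocytes it had the opposite sign, at 0.33. Ndufa4l2, a Hif1 target outside the list that is known to restrain mitochondrial respiration, showed a wider difference. It stood at 123 CPM in control and 43.6 CPM in mutant cells, a log2 ratio of −1.50 (−1.64 to −1.35), and was 0.83 in chondrocytes. The gene lies on chromosome 10 from 127514967 to 127517154, and its UMIs came from 283 control and 148 mutant cells.

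Joint formation genes were lower in the selected mutant cells as a group. Of 19 listed, 15 passed the filter, 14 of them lay below 0, against 69.5% of all genes, and 4 were past 2-fold lower, against 0.718% of all genes, with a median log2 ratio of −0.67. Several of these genes were named by the study from control libraries of this series, so the list is not independent of them. Gdf5 (chromosome 2 from 155941023 to 155945367), the interzone growth factor, stood at 54.8 CPM in control and 26.5 CPM in mutant cells, a log2 ratio of −1.05 (−1.25 to −0.85). The homeobox gene Barx1, which marks joint regions and holds back cartilage formation, went from 133 to 52.4 CPM, a log2 ratio of −1.34 (−1.47 to −1.21). Htra1 (chromosome 7 from 130936111 to 130985660), a secreted serine protease, went from 316 to 129.8 CPM, a log2 ratio of −1.28 (−1.37 to −1.20). The membrane protein gene Tm4sf1 (chromosome 3 from 57285611 to 57301988) went from 163 to 65.8 CPM, a log2 ratio of −1.31 (−1.43 to −1.19).

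Control cells were the higher in all 4 of these genes, and the intervals lay below a log2 ratio of 0. With TMM factors in place of library totals Gdf5 was just under 2-fold, at −0.97. Other members differed by less than 2-fold, among them the Wnt modulator Sfrp2 (−0.68), the transcription factor Osr2 (−0.67), Tgfbi (−0.84), Gas1 (−0.77) and Wnt4 (−0.43). Osr1 was the single member above 0, at 0.13, and with 2 or more Prrx1 UMIs it was at −0.10. The list median was −0.59 among Gdf5-positive cells and −0.91 among Tnmd- or Scx-positive cells, against −0.09 among Runx2-positive and −0.12 among Dcn-positive cells. In chondrocytes it was 0.13. Gdf5 also chose a subset, so within that subset its own ratio of −0.26 is set in part by the choice. The interzone markers differed less in the other kept cells. There Gdf5 stood at 32.36 CPM in control and 32.96 CPM in mutant cells, and Sfrp2 at 327.5 and 307.8 CPM. Osr2 stood at 59.33 and 57.56 CPM, Creb5 at 68.59 and 73.26 CPM and Tgfbi at 119.2 and 111.7 CPM. Prrx1, which set the selection, stood at 84.9 and 56.34 CPM there. The part of the selection in the lower joint formation values was not tested.

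**Figure D2:**
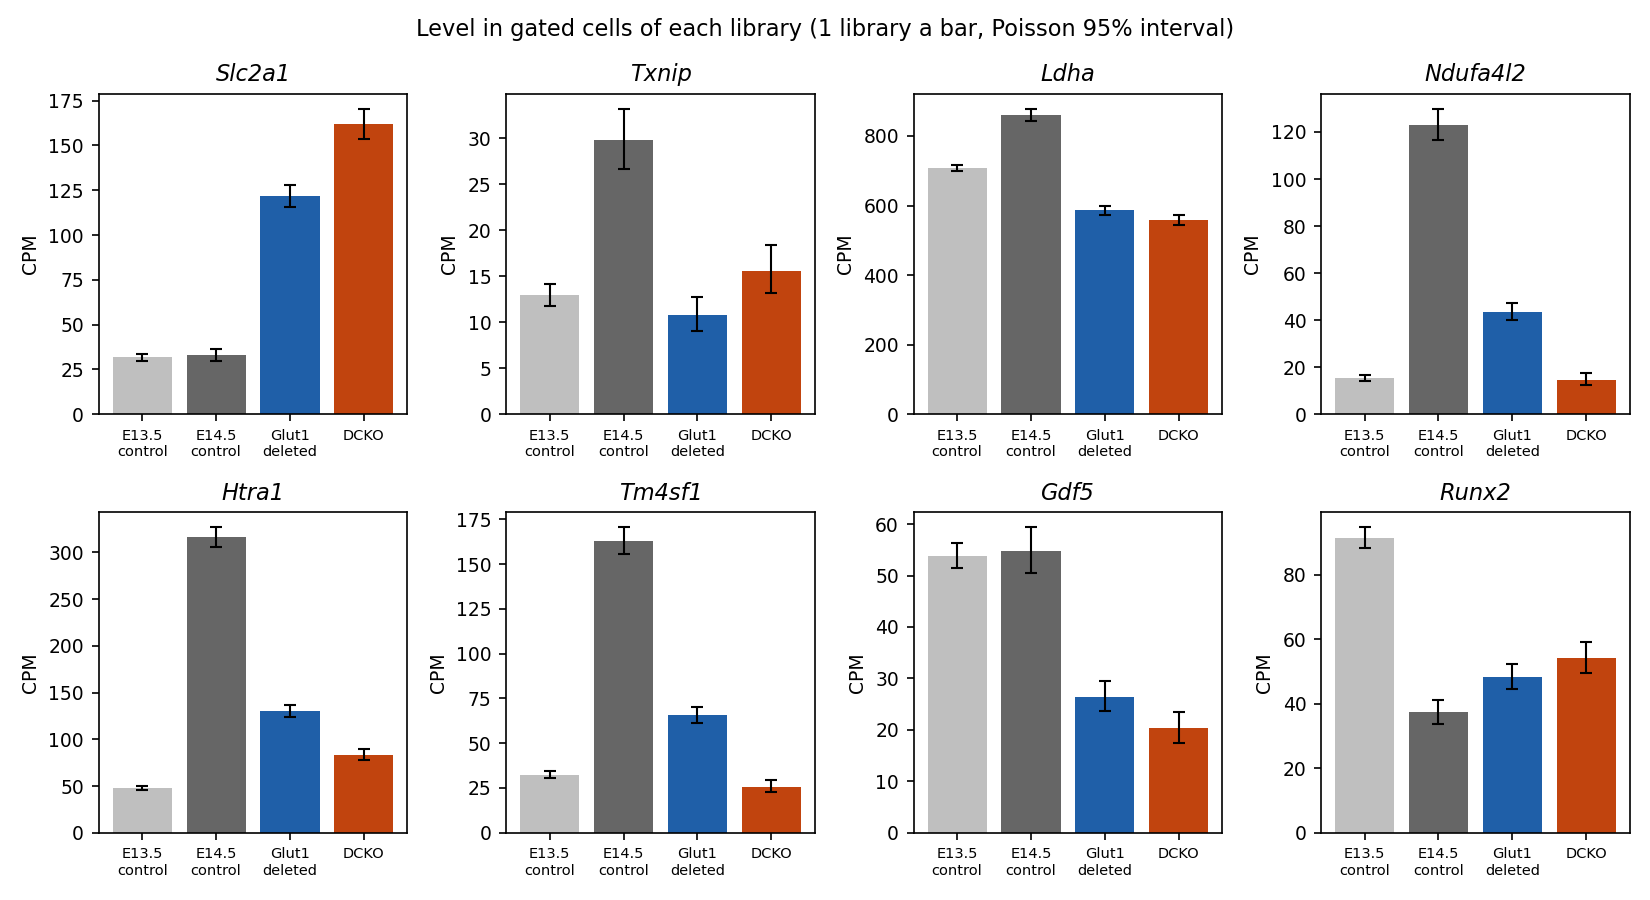
Level (CPM) of 8 genes in the selected cells of each library, with bars starting at 0, 1 library a bar and Poisson 95% intervals that cover counting error only. Slc2a1 was highest in DCKO and next in the mutant library, whereas Htra1, Tm4sf1 and Ndufa4l2 were highest in the E14.5 control.

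Further genes lower in the mutant were named by rule, as the 15 largest falls that kept their direction in the subsets with enough UMIs. F2rl1, which encodes a protease-activated receptor, stood at 14.7 CPM in control and 1.98 CPM in mutant cells, a log2 ratio of −2.86 (−3.56 to −2.27). With 2 or more Prrx1 UMIs it was at −3.72. Socs2, a feedback inhibitor of growth hormone and cytokine signaling, went from 24.5 to 5.63 CPM (−2.11, or −2.84 by the mean over cells). The transcription factor gene Pax9, known in limb patterning, went from 50.4 to 17.4 CPM, a log2 ratio of −1.53 (−1.76 to −1.30). Each of these was higher in the control.

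Lower levels were also found for the secreted Bmp modulator Smoc1 (21.6 to 7.37 CPM, −1.54), for Lgr5, a receptor that enhances Wnt signaling and marks joint progenitors (30.5 to 11.8 CPM, −1.37), and for keratin Krt17 (35.7 to 10.2 CPM, −1.80). Tnni2 (−2.08, or −2.76 with 2 or more Prrx1 UMIs), Ano5 (−1.78) and Cyfip2 (−1.36) were lower as well. Tnni2 is known as a troponin of fast skeletal muscle, and its UMIs came from 143 control and 49 mutant cells. C1qtnf3, with 22.7 and 2.78 CPM and a log2 ratio of −3.01 (−3.58 to −2.52), was left out by the rule and is named after its values were seen.

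The remaining members of the 15 rested on very few cells. All 472 control UMIs of S100a8, a neutrophil protein gene, lay in 1 cell, against 0 in the mutant (at least 181-fold lower with a floor of 3 counts). The same was true of the 227 control UMIs of S100a9 and the 131 of Stfa1, against 4 and 1 UMIs in the mutant. Without cells bearing markers of other lineages S100a9 was at 2.99, from 0 control and 4 mutant UMIs, and S100a8 and Stfa1 had too few UMIs for a ratio. Stfa1 has near-identical paralogs, which leaves its count uncertain. Fabp7, a fatty acid binding protein gene of glia, had 141 control UMIs in 16 cells and 44 mutant UMIs in 7 cells, a log2 ratio of −1.87 (−2.40 to −1.38). Over the alternatives Fabp7 ran from −3.90, without the 10 cells with most of its UMIs, to −0.43, with 2 or more Prrx1 UMIs, where it was under 2-fold. Values of these 4 genes describe single cells or small groups of cells more than the population.

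Genes higher in the mutant were fewer, and the widest ratios came from a handful of cells. Ibsp, which encodes bone sialoprotein, had 4 UMIs in the control and 931 in the mutant, a log2 ratio of 7.49 (6.30 to 9.54), with all mutant UMIs in 9 cells and 580 of them in 1. Ifitm5, an osteoblast gene, had 13 and 225 UMIs, with 117 in 1 mutant cell. Smpd3, a sphingomyelinase gene active in bone and cartilage, had 19 and 205 UMIs, with 120 in 1 mutant cell. The complement gene C1qb of macrophages had 5 UMIs in the control and 153 in 7 mutant cells. Embryonic globin Hbb-y had 917 and 13227 UMIs, 6703 of them in 1 mutant cell, and Hba-x had 410 and 1949, with 991 in 1. Without the 10 cells holding most UMIs of each gene, an alternative chosen after seeing the data, Ibsp and C1qb had 0 UMIs in both libraries, so no ratio could be given. Ifitm5, at 3.86 with all cells, was then at 4.19, Smpd3, at 3.20, at 1.27, Hbb-y, at 3.65, at 0.69 and Hba-x, at 2.05, at 0.88. By the mean over cells of each cell's CPM, Hbb-y was at 0.73 and Hba-x was lower in the mutant, at −1.02, whereas in cells of at least 3000 UMIs they were at 6.88 and 7.08. The pseudogene Olfr1369-ps1 had 48 UMIs in 6 control cells and 140 in 14 mutant cells, a log2 ratio of 1.33, which was 2.97 without the 10 cells with most of its UMIs and 0.94 with Matn1 and Acan at 0.

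Other genes named as higher were found in more cells. Mmp9, a matrix metalloproteinase gene, stood at 6.38 CPM in control and 13.6 CPM in mutant cells, a log2 ratio of 1.09 (0.69 to 1.52), with UMIs in 62 and 117 cells. The cholesterol exporter gene Abca1 stood at 8.01 and 16.3 CPM, a log2 ratio of 1.02 (0.65 to 1.40), from 81 and 169 cells. Opcml, a cell adhesion gene, stood at 15 and 31.1 CPM, a log2 ratio of 1.05 (0.78 to 1.32). In all 3 the mutant cells were the higher. Log2 ratios were 1.02 for the lysosomal gene Cd68 and 1.01 for the receptor-modifying gene Ramp3. All 5 were close to 2-fold. Without cells bearing markers of other lineages the ratios were 0.99 for Mmp9, 0.93 for Abca1, 0.88 for Cd68 and 0.94 for Ramp3, and Opcml was at 0.94 with subsets weighted to the control. By the mean over cells Cd68 was at 0.69. Tmem100 (0.89), Tspan18 (0.83) and Sparcl1 (0.81), also named by the rule, were under 2-fold, although Tmem100 reached 1.08 without the 10 cells with most of its UMIs and Tspan18 1.02 by the mean over cells.

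The osteogenic list had 5 of 13 members above the filter and a median of 0.62. Ibsp and Ifitm5 passed only through the few mutant cells described above, and without them the median of the other 3 was 0.41. Runx2, the transcription factor that starts bone formation, stood at 37.3 CPM in control and 48.2 CPM in mutant cells, a log2 ratio of 0.37 (0.19 to 0.55), and alkaline phosphatase Alpl at 24.3 and 37.4 CPM, a log2 ratio of 0.62 (0.40 to 0.84). Dlx5 was at 0.41, with UMIs in 123 and 215 cells. The cartilage list, without Matn1 and Acan, had 13 of 20 members above the filter, 11 of them below 0, against 69.5% of all genes, and a median of −0.33. By subset this median was 0.40 in Gdf5-positive, −0.47 in Tnmd- or Scx-positive, −0.11 in Runx2-positive and 0.14 in Dcn-positive cells. Within it the transcription factors Sox9 (−0.44), Sox5 (−0.58) and Sox6 (−0.59) were lower in the mutant, whereas Col2a1 differed by −0.03 and Col11a1 by 0.00.

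For the tendon list the median was −0.01 over 9 of 11 members. It joined the transcription factor gene Mkx, which went from 31.4 to 15 CPM, a log2 ratio of −1.07 (−1.33 to −0.81), or −0.99 with TMM factors, with Thbs4 at 0.39 and Scx at −0.28. By subset the tendon median was −0.91 in Gdf5-positive, 0.03 in Tnmd- or Scx-positive, 0.21 in Runx2-positive and 0.02 in Dcn-positive cells. Fibrous matrix genes had a median of −0.06 over 27 of 30, with 14 below 0 (51.9%, against 69.5% of all genes). Intervals lay above 0 for 9 and below 0 for 11 of them, against 635 and 2234 of all 8219 genes. Fibromodulin, encoded by Fmod (−0.83), fibrillin 2, encoded by Fbn2 (−0.64), and Dcn (−0.46) were lower in the mutant, and Col1a1 (0.27), Col1a2 (0.29) and elastin, encoded by Eln (0.36), were higher. Of 23 Hox and limb-type genes, 14 passed with a median of −0.13, among them the hindlimb gene Pitx1 at −0.22. Hoxa11 went from 36.9 to 16.7 CPM, a log2 ratio of −1.15 (−1.39 to −0.90). Its antisense transcript Hoxa11os overlaps it and was lower too, at −1.26.

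Signaling lists held 0 genes past 2-fold, against 0.231% of all genes higher and 0.718% lower. Tgfb signaling had 23 of 25 members above the filter, 19 of them below 0, against 69.5% of all genes, and a median of −0.19. The median was −0.30 in Gdf5-positive and −0.31 in Tnmd- or Scx-positive cells, but 0.03 in Runx2-positive and 0.00 in Dcn-positive cells. Its ligand genes Tgfb2 (0.07) and Tgfb3 (−0.09) lay near the all-gene median or above it, while Inhba (−0.71), the latent-binding gene Ltbp2 (−0.79) and the feedback inhibitors Pmepa1 (−0.52) and Smad7 (−0.45) were lower. Bmp signaling had a median of −0.24 over 17 of 22, 14 of them below 0, with the ligand Bmp4 at −0.52, the antagonist Chrd at −0.51 and the target Id1 at −0.24. Wnt signaling had a median of −0.17 over 14 of 29. The ligand Wnt5b (−0.59) and the inhibitor Dkk3 (−0.78) were lower, whereas the inhibitor Dkk2 (0.43) and the enhancer Rspo2 (0.49) were higher. Igf, Fgf and hedgehog signaling, with −0.08 over 23 of 30, included Igf1 at 0.29 and Igf2 at −0.37.

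The unfolded protein response list, chaperones and enzymes of the endoplasmic reticulum, had 20 of 21 members above the filter, and 17 of these were lower in the mutant, against 69.5% of all genes. The median was −0.28. Intervals lay above 0 for 1 and below 0 for 15 of the 20, against 635 and 2234 of all 8219 genes. The list held 0 genes past 2-fold, against 0.231% of all genes higher and 0.718% lower. Hspa5, the main chaperone of this compartment, stood at 858 CPM in control and 659 CPM in mutant cells, a log2 ratio of −0.38 (−0.42 to −0.34), and the transcription factor gene Xbp1 at 96.1 and 73.9 CPM, a log2 ratio of −0.38 (−0.51 to −0.25). In chondrocytes the list median was 0.25. Targets of Atf4 in the integrated stress response had a median of −0.01 over 21 of 34 members, against 0.55 in chondrocytes. Atf4 itself differed by 0.04 and asparagine synthetase, encoded by Asns, by 0.18. Aminoacyl-tRNA synthetases had a median of −0.07 over all 20 listed.

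Biosynthetic and mitochondrial lists had medians from −0.16 to 0.00. Hexosamine and UDP-sugar synthesis had −0.16 over 13 of 14 genes, with phosphoglucomutase Pgm1 at −0.57. The pentose phosphate and glycogen list had −0.02 over 6 of 12, glutamine and aspartate metabolism −0.11 over 11 of 13, and cholesterol and fatty acid synthesis −0.16 over 21 of 24. Of these 21, 18 were below 0 (85.7%), and their median was −0.65 in Gdf5-positive cells and −0.28 in chondrocytes, where all genes had −0.10 and −0.10. The tricarboxylic acid cycle list had −0.06 over 24 of 26. Nuclear OXPHOS genes, which encode respiratory chain and ATP synthase subunits, had a median of 0.00 over 68 of 70, or 0.08 with TMM factors. Of these, 33 were below 0 (48.5%, against 69.5% of all genes). Intervals lay above 0 for 18 and below 0 for 11 of the 68, against 635 and 2234 of all 8219 genes. Atp5k (0.54) and Ndufa3 (0.41) stood above the other OXPHOS genes. A median above that of all genes was not particular to OXPHOS. Ribosomal protein genes, a set added after seeing the data, had a median of 0.05 over 73 genes. Of these, 54 were above 0, with Rps29 the highest at 0.65. Their median was 0.11 in chondrocytes and −0.04 outside the Prx1Cre lineage. The cause of these shifts was not tested.

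Cell cycle and stress lists also held no gene past 2-fold, against 0.231% of all genes higher and 0.718% lower. S phase genes had a median of −0.07 over 23 of 24, G2 and M phase genes −0.14 over 24 of 24, and cell cycle inhibitors −0.13 over 8 of 11. The proliferation gene Mki67 differed by 0.10 and the mitotic kinase gene Aurka by −0.32. For p53 targets and apoptosis genes the median was −0.08 over 14 of 19. Immediate-early and heat shock genes, which enzymatic dissociation can induce, had 0.01 over 23 of 24. The oxidative stress list had −0.03 over 14 of 19, although the metallothionein gene Mt1 stood at 16.3 CPM in control and 30.4 CPM in mutant cells, a log2 ratio of 0.90 (0.64 to 1.17). Lysosome and autophagy genes had −0.08 over 16 of 20.

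**Figure D3:**
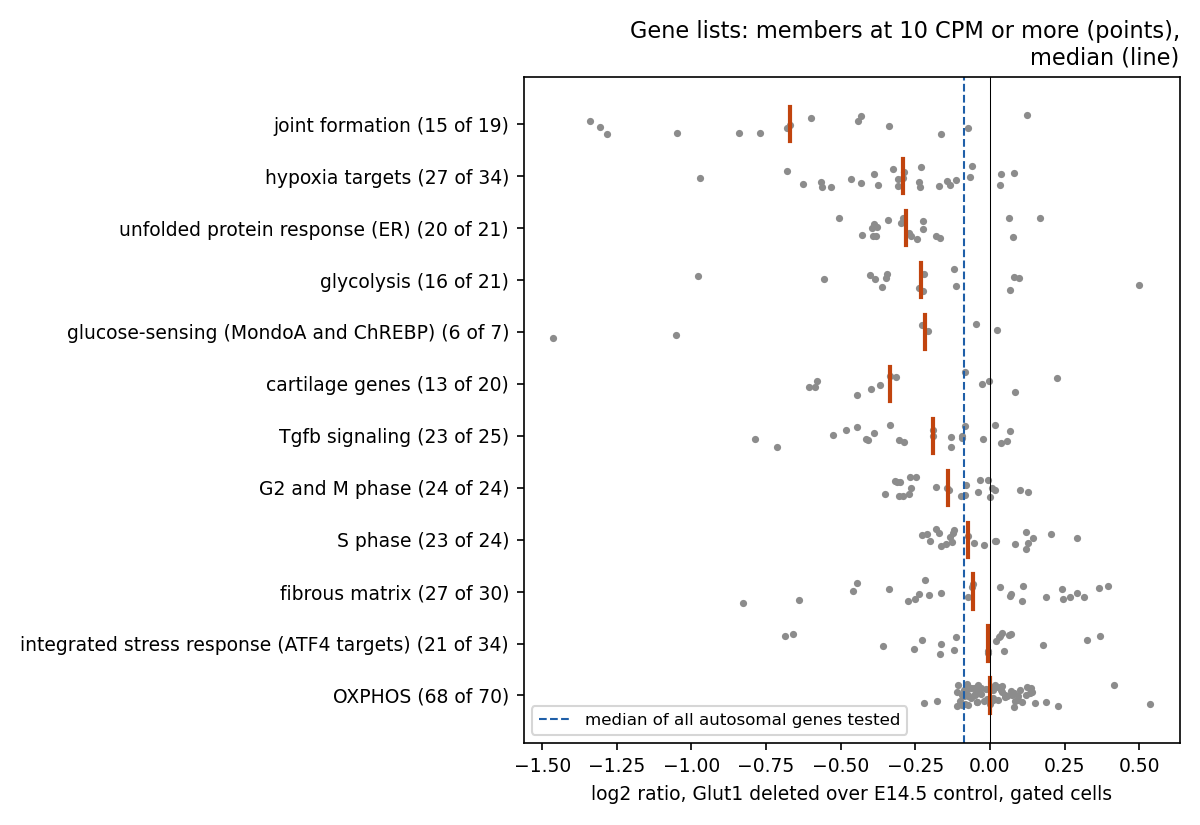
Log2 ratio, mutant over control, of the members of 12 gene lists that reached 10 CPM (points, with the number that passed out of the number listed), with the list median (line) and the median of all 8219 genes (dashed). The joint formation median of −0.67 lies furthest below the all-gene median of −0.09, and OXPHOS lies at 0.00.

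The composition of the selected cells was described by single markers. Gdf5 UMIs were found in 20.9% of control cells (18.8 to 23.0) and 11.7% of mutant cells (10.3 to 13.3), and after thinning to 2000 UMIs in 10.2% and 5.32%. Outside the Prx1Cre lineage the Gdf5 shares were 0.946% and 2.18%. Scx, the tendon progenitor factor, marked 36.8% and 26.3% of the selected cells, and 21.5% and 15.3% of the cells outside the lineage. At 2000 UMIs a cell its shares were 18.7% and 13.2%, above the 5.02% and 3.42% found outside. Tnmd, a later tendon gene, was found in 5.54% and 9.14%, against 1.26% and 0.871% outside the lineage. Gdf5-positive cells were thus the smaller share in the mutant and Tnmd-positive cells the larger, whereas the Scx share was lower in the mutant both in the selected cells and outside the lineage.

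Runx2 UMIs were found in 14.2% of control cells (12.5 to 16.1) and 18.2% of mutant cells (16.5 to 20.1), and outside the lineage in 1.26% and 2.40%. Dcn UMIs were found in 16.0% (14.2 to 18.0) and 25.7% (23.8 to 27.8), against 3.79% and 3.49% outside. Both shares were the higher in the mutant, although the summed level of Dcn was lower there, at 227 CPM in the control and 165 CPM in the mutant. When subsets were weighted to the shares they have in the control, the joint formation median was −0.45, Gdf5, which itself chooses a subset, was at −0.26, and 43 of the 59 lower genes were still past 2-fold. Differences in composition and differences within cells cannot be fully told apart from these counts.

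The DCKO and the mutant library share the E14.5 control, and the E13.5 control is compared with that same control, so their values are given side by side only. Of 8242 genes, 30 (0.364%) were at least 2-fold higher and 129 (1.57%) at least 2-fold lower in DCKO than in control cells. From E13.5 to E14.5 in controls, over 8431 genes, 272 (3.23%) were higher and 119 (1.41%) lower. Chondrocytes of the mutant against the control, over 7641 genes, had 38 (0.497%) higher and 16 (0.209%) lower. Slc2a1 stood at 31.8 CPM in the E13.5 control and 162 CPM in DCKO. Txnip stood at 12.9 CPM in the E13.5 control and 15.6 in DCKO, Ndufa4l2 at 15.5 and 14.7, and Htra1 at 48.1 and 83.4. For Htra1, Tm4sf1 and Ndufa4l2 the E14.5 control was the highest of the 4 libraries. The joint formation median was −1.19 in DCKO over control and 0.84 in the E14.5 over the E13.5 control. Gdf5 stood at 53.9 CPM at E13.5, 54.8 at E14.5 and 20.3 in DCKO, and its control values lay within each other's counting intervals.

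Markers of other cell types were present and differed between the libraries. Summed over each list, macrophage markers stood at 5.56 CPM in control and 46.2 CPM in mutant cells, and 5 of the 6 had at least 1 UMI in the control, with C1qa at 0. Tyrobp was the most abundant of them in the control. Endothelial markers summed to 23.1 and 63.0 CPM, led by Emcn at 17.9 and 41.2 CPM, with all 5 present in both. Erythroid markers summed to 806 and 2108 CPM, with Hbb-bs the most abundant in the control at 469 CPM and Hbb-y in the mutant at 1049 CPM. Skeletal muscle markers summed to 33.4 and 19.7 CPM, led by Actc1 at 13.9 and 5.23 CPM (at −1.41, but 0.92 without the 10 cells with most of its UMIs), and mural markers to 113 and 180 CPM, led by Acta2 at 43.2 and 112 CPM. Glial or neuronal markers summed to 16.8 and 12.7 CPM and epidermal markers to 7.38 and 9.04 CPM. Removing the 14 control and 34 mutant cells with 2 or more UMIs of the endothelial, macrophage or muscle genes kept 13 of the 19 higher and 51 of the 59 lower genes past 2-fold. C1qb then had too few UMIs for a ratio, since the removal used its own UMIs. Removing the 2 control and 4 mutant cells with over 1% of UMIs from haemoglobin genes, chosen after seeing the data, kept 16 of the 19 higher and 59 of the 59 lower genes, and Hbb-y was then at 0.65 and Hba-x at 0.09. The part of the other cell types in the remaining values was not tested.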

How the data were processed

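Single-cell suspensions of the dissected knee region were sequenced as 10x Genomics 3′ (v3.1) libraries. Per the file headers, the deposited values are whole UMI counts of each gene in each called cell, made with Cell Ranger 6.1.2, and cells outside the limits used here were still among them. The submitters' processing notes name the genome build mm10 and Seurat 3, whose later steps were not used. Cells with 200 to 6000 genes and at most 10% of UMIs from genes starting with mt- were kept. Of the 9707 barcodes of the control and the 11690 of the mutant, 89 and 80 exceeded 6000 genes, 94 and 112 had fewer than 200, and 226 and 264 exceeded the mitochondrial limit. UMIs of the selected cells were summed per library and scaled to CPM, and log2 ratios used a prior of 0.5. Autosomal genes with 10 CPM or more in either library were compared. With 1 library per genotype no test between genotypes was made. Intervals of ratios are exact conditional 95% intervals and those of shares Clopper-Pearson intervals, and both cover counting error only. Thinned shares are expected shares at 2000 UMIs a cell and leave out cells with fewer. These were 53 control and 68 mutant cells among the selected cells, and 47 and 39 outside the lineage.

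Named genes were the 15 largest rises and falls with a gene symbol that is not a predicted model, the same direction in each of 4 subsets where either library had 10 or more UMIs, and a level at least 0.33 of that in the other kept cells. Of the 19 higher genes, 1 was a predicted model, 5 differed in direction between subsets and 1 was low against other cells, which left 12. Of the 59 lower genes these numbers were 2, 16 and 2, which left 39. Members of 30 gene lists (699 genes) could also be named. Members and lists were chosen with earlier results of these data known. Gene positions come from GENCODE M21 for GRCm38, in which 32235 of 32285 identifiers were found. Cells with 2 or more UMIs of Pecam1, Cdh5 and Cldn5, 3 or more of C1qa, C1qb, Fcer1g and Tyrobp, or 2 or more of muscle genes, all with 0 Prrx1 UMIs, were taken as outside the lineage. The alternatives were 13 planned ones (limits of the selection and filters, scaling by TMM factors or by a total without haemoglobin, mitochondrial and sex-linked genes, the mean over cells, the fold, depth, other lineages, subset weights) and 2 chosen after seeing the data. Python 3.11.15, numpy 2.4.6, scipy 1.17.1, pandas 2.3.3, R 4.3.3 and edgeR 4.0.16 were used, and the ratio was checked on simulated data.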

Additional observations from a re-analysis of the deposited data

Results flagged for a closer look

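In the same pair of libraries, some values had opposite signs in the selected mesenchymal cells and in chondrocytes (5 or more UMIs of Matn1 and Acan). The log2 ratio of Ndufa4l2, mutant over control, was −1.50 in the selected cells and 0.83 in chondrocytes. For Gdf5 it was −1.05 and 0.33, and for the muscle gene Actc1 −1.41 and 1.01. The sign of Actc1 in the selected cells rested on few cells. Without the 10 cells with most of its UMIs it was at 0.92, from 8 control and 18 mutant UMIs. By the mean over cells it was at −0.57, and without cells bearing markers of other lineages at −0.45. Only genes with 10 CPM or more in chondrocytes of either library were compared in this way. Among the lists, the median of hypoxia targets was −0.29 in the selected cells and 0.33 in chondrocytes, that of the unfolded protein response −0.28 and 0.25, and that of joint formation −0.67 and 0.13. Each group of cells came from 1 library per genotype, and the differences were not tested.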

How the results depend on the processing

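Of the named autosomal genes past 2-fold with 10 CPM or more in either library, 42 in number, 448 of 451 values under 11 alternatives kept their sign and 412 were still past 2-fold. No value was given in 11 cases, over S100a8, S100a9, Stfa1, Ibsp and C1qb, where both libraries had 3 UMIs or fewer. With 2 or more Prrx1 UMIs the joint formation median was −0.79. Weighting subsets to the control gave a joint formation median of −0.45 and Gdf5 at −0.26. With TMM factors, which moved the all-gene median to −0.01, the OXPHOS median was 0.076. TMM factors gave 24 higher and 48 lower genes, and the mean over cells 14 and 75, with Hba-x at −1.02, Hbb-y at 0.73 and Slc16a3 past 2-fold at −1.25. With 2 or more Prrx1 UMIs Fabp7 was at −0.43. Without cells bearing markers of other lineages S100a9 was at 2.99, from 0 control and 4 mutant UMIs, and Mmp9, Abca1, Cd68 and Ramp3 were under 2-fold higher. Without cells over 1% haemoglobin UMIs, chosen after seeing the data, 16 higher and 59 lower genes were past 2-fold. Without the 10 cells holding most UMIs of each gene, also chosen after seeing the data, 11 genes were past 2-fold higher and Actc1 was at 0.92; by construction this drops genes held by few cells. A minimum of 1 CPM gave 236 higher and 320 lower genes and an osteogenic median of 0.90. At 50 CPM there were 6 and 13, the osteogenic median rested on Ibsp alone at 7.49, and the glucose-sensing list had no gene left. A fold of 1.5 gave 61 and 196 genes, and a fold of 3 gave 10 and 11. These last counts follow from the limits used, and the cause of the other moves was not tested. No paired analysis was possible because each genotype was 1 library. Depth limits genes of few UMIs, such as Slc2a3 with 66 and 56.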

Other observations

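Some genes differed in the same direction in cells that Prx1Cre does not target, and they are named after their values were seen. The transcript AI506816 stood at 71.9 CPM in control and 8.48 CPM in mutant mesenchymal cells, a log2 ratio of −3.08 (−3.39 to −2.79). It was at −2.95 (−3.07 to −2.84) in chondrocytes, at −1.85 (−2.23 to −1.50) in muscle, endothelial and macrophage cells, and at 70.8 CPM in the selected cells of DCKO. Snhg3, a host gene of small nucleolar RNAs, stood at 43.4 and 17.9 CPM, or −1.27 (−1.51 to −1.04), with −1.32 (−1.66 to −0.99) outside the lineage and 16.6 CPM in DCKO. Each was lower in the mutant library in the groups of cells for which its ratio is given here. Whether such differences go with genotype, sex, embryo or library cannot be told apart.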
